A study of Mus musculus with 51 samples.

Results

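The genes described are the mouse odorant receptors (ORs) whose symbols run from *Olfr986* to *Olfr1140*, without *Olfr1012* to *Olfr1015*, which were left out of the set. The members were picked by symbol, with earlier results of these data known, and 103 of the 1117 OR genes in the count tables (9.22%) belong to the set. Symbols of this range stand for a cluster on chromosome 2, and the gene models bore this out for 102 of the 103 genes. The exception was *Olfr986*, which lies on chromosome 9.

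ORs are membrane receptors of olfactory sensory neurons (OSNs) that bind volatile molecules and signal through a G protein. Each mature OSN expresses one OR gene from one allele, so the reads of an OR in the tissue depend both on the number of OSNs that chose it and on the RNA in each. OR genes lie in clusters that grew by tandem duplication, and neighbours often encode similar receptors. Activity of an OSN leads to phosphorylation of ribosomal protein S6. In pS6-IP-Seq, ribosomes that carry phosphorylated S6 are captured with an antibody and the mRNA bound to them is sequenced, so that the OR transcripts of activated OSNs are enriched. In a whole-tissue capture, a change in the number of labelled OSNs and a change in the captured RNA per OSN cannot be told apart.

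The libraries were made from whole olfactory mucosa of wild-type C57BL/6J mice, mixed-sex littermates about 3 weeks old. Each mouse was exposed for 1 hr to 10 μL of an odorant or of a diluent on a blotting pad. The question was which ORs an odorant activates, and the 51 libraries fall into 10 odor groups and 7 control groups of 3 mice each. All odorants but the musk cyclopentadecanone (CPD) are known from mouse urine. They were 2-*sec*-butyl-4,5-dihydrothiazole (SBT) at 0.01%, 1% and 100%, (methylthio)methanethiol (MTMT) at 100 μM and 10 mM, 3,4-dehydro-*exo*-brevicomin (DHB) at 77%, (*E*)-β-farnesene at 100%, 2,5-dimethylpyrazine (2,5-DMP) at 1% and β-caryophyllene at 1%. CPD was used at 100 mM. MTMT and CPD were diluted in ethanol and the other odorants in water, but the paper names no diluent for SBT at 100%. If it was used neat, odor and the lack of a diluent cannot be told apart in its comparisons. The labels do not name the diluent of each control group. The 1% and 100% SBT groups shared 1 control group, and (*E*)-β-farnesene, 2,5-DMP and 100 μM MTMT shared another. If the latter controls received a single diluent, odor and diluent cannot be told apart in at least 1 of those 3 comparisons. The tables hold OR genes only, so markers of other cells of the mucosa could not be checked. Reads per library over all ORs ran from 27301 to 160001 (median 93870), and the 3 shared controls of 1% and 100% SBT were the shallowest group. The single OR *Olfr545* took 14.4% of the OR reads in replicate 1 of 1% SBT, and *Olfr541* took 9.79% in replicate 3 of 10 mM MTMT.

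The 102 genes on chromosome 2 span chr2:85330779-87747581 (GRCm38), which is 2.417 Mb, with 38 on the plus strand and 64 on the minus strand. The longest run on a single strand was 12 genes, from *Olfr1037* to *Olfr1051*, all on the minus strand. The median gap between neighbours was 15.34 kb and the largest, between *Olfr995* and *Olfr996*, 135.6 kb. A further 10 ORs of the tables lie inside the span. *Olfr986* lies at chr9:40180920-40190134. The coding sequences are 921 to 1038 bases long (median 939) and uninterrupted in 101 genes, whereas the exons together measure 927 to 9655 bases (median 2213). Over the 5253 pairs of genes, protein identity had a median of 50.83% (29.0% to 98.38%), and for 47 genes the closest relative in the set was also the next gene on the chromosome. A total of 34 genes shared more than 10% of their 50-base exon stretches with other transcripts and 25 shared none, so the split of reads between near copies is uncertain for the former.

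The sequences that the results turn on follow in 2 sets, of which the first is the part of the coding sequence in which *Olfr1129* and *Olfr1130*, neighbours 28.95 kb apart on the plus strand, differ most. Only 20 of 942 coding bases and 6 of 314 residues differ between them, and 413 of the 50-base stretches of their exons are identical, and of the pair *Olfr1130* alone passed the threshold after 100% SBT. Capitals mark the 8 differing bases in coding positions 216 to 375 (chr2:87575301-87575460 and chr2:87607605-87607764, GRCm38, plus strand). Counted from the first coding base, with the base of *Olfr1129* first, they are A240T, T252C, G277A, A300C, T339G, G341C, T357C and C375T.
Olfr1129: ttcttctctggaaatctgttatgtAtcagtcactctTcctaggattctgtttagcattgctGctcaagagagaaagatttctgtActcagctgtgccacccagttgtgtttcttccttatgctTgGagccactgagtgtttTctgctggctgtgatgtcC
Olfr1130: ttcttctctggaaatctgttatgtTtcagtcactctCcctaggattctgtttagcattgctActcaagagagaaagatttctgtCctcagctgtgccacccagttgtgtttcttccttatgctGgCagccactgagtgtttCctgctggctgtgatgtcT

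The second set aligns 120 coding bases, without gaps, around the conserved motif at the end of the third membrane helix, for the genes whose reads rose after SBT. Capitals mark bases that differ from *Olfr1047*. The stretches lie at chr2:86228547-86228666 (*Olfr1047*), chr2:86332932-86333051 (*Olfr1054*), chr2:86445558-86445677 (*Olfr1065*), chr2:86690551-86690670 (*Olfr1087*), chr2:86658034-86658153 (*Olfr1085*) and chr2:87022120-87022239 (*Olfr1104*) on the minus strand, and at chr2:87607711-87607830 (*Olfr1130*) on the plus strand.
Olfr1047: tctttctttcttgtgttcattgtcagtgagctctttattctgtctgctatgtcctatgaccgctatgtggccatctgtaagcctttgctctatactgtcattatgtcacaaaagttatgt
Olfr1054: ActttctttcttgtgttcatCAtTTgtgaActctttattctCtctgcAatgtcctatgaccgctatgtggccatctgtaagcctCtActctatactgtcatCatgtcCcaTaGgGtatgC
Olfr1065: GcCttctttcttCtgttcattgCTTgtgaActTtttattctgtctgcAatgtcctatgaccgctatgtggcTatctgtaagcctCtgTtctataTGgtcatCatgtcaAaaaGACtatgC
Olfr1087: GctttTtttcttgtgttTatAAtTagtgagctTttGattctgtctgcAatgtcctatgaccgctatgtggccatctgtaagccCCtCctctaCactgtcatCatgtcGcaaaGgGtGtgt
Olfr1085: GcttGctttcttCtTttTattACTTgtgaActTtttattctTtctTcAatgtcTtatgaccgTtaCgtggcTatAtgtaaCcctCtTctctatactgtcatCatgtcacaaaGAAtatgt
Olfr1104: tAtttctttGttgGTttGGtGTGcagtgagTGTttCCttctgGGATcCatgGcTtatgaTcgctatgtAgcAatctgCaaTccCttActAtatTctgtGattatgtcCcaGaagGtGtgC
Olfr1130: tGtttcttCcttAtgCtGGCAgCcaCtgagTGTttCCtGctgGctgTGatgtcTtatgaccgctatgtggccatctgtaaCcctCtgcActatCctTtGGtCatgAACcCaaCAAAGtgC

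The others of the first 5 differ from *Olfr1047* at 16 to 26 bases (16 in *Olfr1054*, 18 in *Olfr1087*, 20 in *Olfr1065* and 26 in *Olfr1085*). *Olfr1104* differed at 36 and *Olfr1130* at 38 of the 120 bases. Over the whole protein, the first 5 were 70.3% to 84.7% identical to each other and 46.2% to 55.2% identical to *Olfr1104* and *Olfr1130*, which were 49.8% identical to each other. Only genes that rose are printed. *Olfr1090*, *Olfr1080*, *Olfr1058* and *Olfr1079*, not called after SBT, are 78.6% to 80.8% identical to *Olfr1047* in protein, against 74.4% for *Olfr1085*.

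In control mice the 103 genes together took 4.11% ± 0.395 of the OR reads (SD, n = 21, range 3.51% to 5.14%), although they are 9.22% of the OR genes. The ORs *Olfr1141* to *Olfr1318*, the 140 genes that continue the numbering, took 10.1% ± 0.814. The median gene of the set had 0.0249% of the OR reads and the median of the 1014 other ORs 0.0458%. Of the 103, 72 were below the median of all ORs and 3 were among the 112 most abundant. Reads were unevenly spread, since the 10 most abundant genes held 41.6% of the summed share and 16 genes held 50% of it. At least 1 read was counted in every library for 60 genes and at least 10 reads for 24.

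*Olfr1018* was the most abundant gene of the set, at 0.522% ± 0.126 of OR reads in the 21 control libraries (0.327% to 0.835%) and the 25th most abundant of all ORs. *Olfr1104* followed at 0.266% ± 0.05 (0.189% to 0.360%), *Olfr1110* at 0.229% ± 0.0665 (0.145% to 0.409%) and *Olfr1112* at 0.156% ± 0.0323 (0.0775% to 0.220%). The next 4 were *Olfr994* at 0.119% ± 0.0403, *Olfr1030* at 0.0892% ± 0.0299, *Olfr1045* at 0.0870% ± 0.0231 and *Olfr987* at 0.0835% ± 0.0289. These 8 are receptors whose ligands the sources used here do not give. Since longer transcripts collect more reads, levels of different genes were compared per kb of exon. On that scale *Olfr1018* stayed first at 0.164% ± 0.0395 per kb and *Olfr1112* came second at 0.108% ± 0.0224, ahead of *Olfr1104* at 0.0952% ± 0.0179 and *Olfr1110* at 0.0725% ± 0.0211. *Olfr1112* and *Olfr1104* differed by less than the SD of either, and *Olfr1018* stood above *Olfr1112* by more than both SDs. *Olfr1030* fell to place 25 and *Olfr1045* to place 14 of the set.

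**Figure D1:**
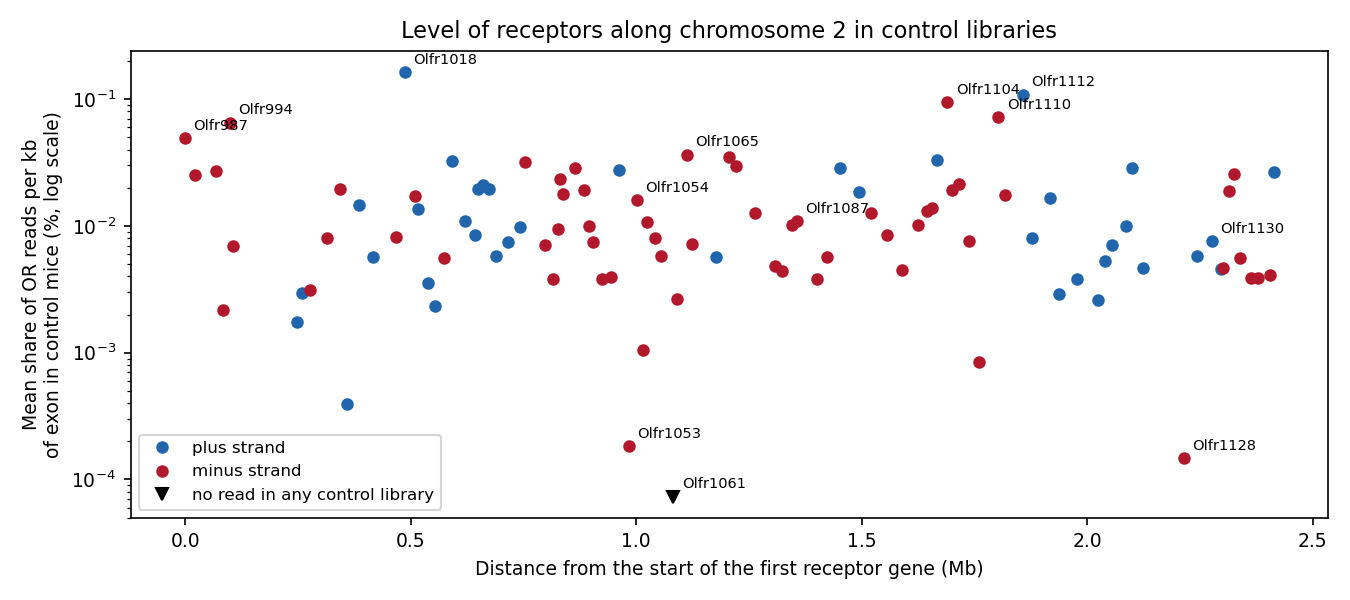
Mean share of OR reads per kb of exon (percent, log scale) in 21 control libraries against the distance from the start of the first gene (Mb), for the 102 genes on chromosome 2, with 1 point for each gene coloured by strand. *Olfr1018* is the highest at 0.164% per kb, and the triangle marks *Olfr1061*, without a read.

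At the lower end, *Olfr1061* had no read in any of the 51 libraries, which together hold 4730857 OR reads and so allow a share of up to 6.34e-05%. *Olfr1128* had 4 reads and *Olfr1053* 17 reads over all libraries. The exons of *Olfr1061*, *Olfr1128* and *Olfr1053* measure 942, 936 and 942 bases in the gene models used here, against a median of 2213. Transcript outside annotated exons is not counted, so a lack of reads does not show a lack of transcript. *Olfr986* on chromosome 9 was unremarkable within the set, at 0.0149% ± 0.00613 in control mice (place 66 of 103), with between 1 and 39 reads a library, and it passed the threshold in no comparison.

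Within single libraries, 8 genes ever reached 5% of the reads of the set. *Olfr1018* did so in 49 of 51 libraries, from 4.86% to 23.2% (median 11.8%), with the highest share in replicate 2 of β-caryophyllene (999 reads), where the other two mice of the group had 305 and 529 reads. *Olfr1104* did so in 45 libraries (median 6.27%), with the highest share of the set's reads in replicate 3 of 100% SBT (454 reads), and *Olfr1065* reached 7.15% and *Olfr1087* 8.15% in replicate 2 of that group. *Olfr1110* (9.33%) and *Olfr994* (5.49%) peaked in replicate 1 of the 1% and 100% SBT controls, *Olfr1045* (5.48%) in replicate 1 of 1% SBT, and *Olfr1112* (5.49%) in replicate 3 of CPD. The levels of the 4 most abundant genes varied between groups. The group means of *Olfr1018* ran from 0.273% (100% SBT) to 0.679% (0.01% SBT controls), those of *Olfr1104* from 0.165% (CPD) to 0.752% (100% SBT), those of *Olfr1110* from 0.174% to 0.301%, and those of *Olfr1112* from 0.0848% to 0.191%.

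The ratio of the highest to the lowest of the 17 group means was taken over the 67 with at least 10 reads in each library of their highest group. A gene entered through the group where it was high, and the lowest means rest on few reads, so the ratios are a description only. The 5 highest were those of *Olfr1086* (22.0), *Olfr1130* (20.6), *Olfr1085* (12.1), *Olfr1054* (10.7) and *Olfr1087* (9.92). *Olfr1086* had 40, 17 and 17 reads after 100 μM MTMT against 9, 16 and 22 in the controls of that group, so the ranges overlapped there. Its lowest group was 1% SBT, with 0, 0 and 2 reads, and it passed the threshold in no comparison.

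The summed share of the 103 genes was compared as a total, in which abundant genes weigh most and opposite changes cancel. In 9 of the 10 odor groups the libraries overlapped with those of their controls, and the exact two-sided permutation test, in which 3 mice against 3 allow no p below 0.1, gave p from 0.2 to 0.9. Adjusted over the 10 tests by Benjamini-Hochberg, no p was below 0.5. After 10 mM MTMT the 3 mice had 3.86%, 2.99% and 2.63% and their controls 4.31%, 4.12% and 4.16%. All 3 exposed mice were thus below all 3 controls, by a mean of -0.43 on the log2 scale (ratio 0.744, exact p = 0.1). Because no exposed mouse reached a control, the ratio had to be below 1 in each set of libraries that share a title prefix. It was 0.813 for replicates 1 and 2 and 0.633 for replicate 3, which is 1 mouse against 1. On TMM effective library sizes, which give little weight to ORs that rose steeply, the difference was -0.10 (exact p = 0.3). Replicate 3, the lowest mouse, was also the library in which *Olfr541* took 9.79% of the OR reads, and the part of that gene in the difference was not tested.

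The set's summed share differed little for SBT, a total that does not show whether single genes held steady. It was 4.10% ± 0.280 after 0.01% SBT against 4.27% ± 0.225 (p = 0.5, exact), 4.60% ± 1.17 after 1% SBT and 4.62% ± 0.120 after 100% SBT, each of the last 2 against 4.42% ± 0.705 in the same controls (exact p = 0.9 and 0.7, n = 3 each). The wide spread at 1% came from mice at 4.41%, 5.85% and 3.53%, of which the second lay above and the third below all controls. For 100% SBT the ratio was 0.966 in replicates 1 and 2 and 1.24 in replicate 3, which carry different title prefixes, and for 1% SBT it was 1.08 and 0.944. The ratios for DHB (0.910) and CPD (0.880) were below 1 in both of their prefix sets as well, at 0.888 and 0.956 for DHB and 0.847 and 0.954 for CPD, with exact p = 0.2 for each.

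**Figure D2:**
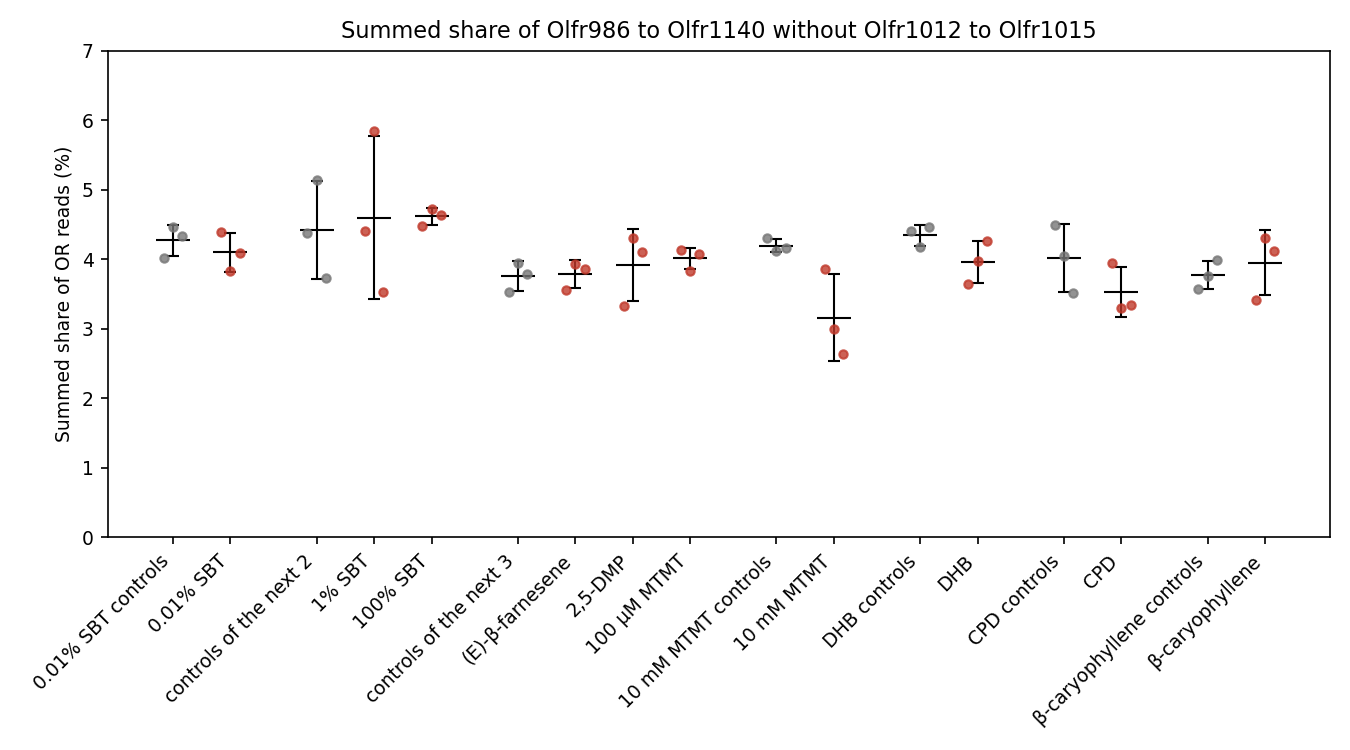
Summed share of the 103 genes in percent of OR reads, 1 point for each mouse (grey controls, red odor), with a horizontal line at the mean and bars of 1 SD (n = 3 a group); "next 2" and "next 3" name the odor groups to the right that share a control group. The 10 mM MTMT mice, at 2.63% to 3.86%, lie below their controls at 4.12% to 4.31%, and all other odor groups overlap with their controls.

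Exposure to 100% SBT raised 6 of the 95 genes tested, *Olfr1054*, *Olfr1087*, *Olfr1104*, *Olfr1130*, *Olfr1047* and *Olfr1065*, and lowered none (edgeR quasi-likelihood test, Benjamini-Hochberg adjusted over all ORs, threshold 0.05). They make up 6.32% of the genes tested, whereas 11.4% of the 1050 ORs tested passed the threshold in this comparison and 10.7% passed it as higher. The median log2 fold change (log2FC) was 0.01 for the set and -0.07 for all ORs. *Olfr1054* had 13, 12 and 7 reads in the controls and 154, 188 and 75 after 100% SBT, or 0.0254% ± 0.00427 against 0.166% ± 0.0315 of OR reads. Every exposed mouse was above every control, and the log2FC was 3.11 (SE 0.41, adjusted p = 0.000257, n = 3 against 3, edgeR). *Olfr1087* rose from 35, 33 and 10 reads (0.0580% ± 0.0214) to 218, 402 and 150 (0.304% ± 0.0698), with no overlap, and had a log2FC of 2.75 (SE 0.38, adjusted p = 0.000342). Both are receptors from the middle of the cluster.

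*Olfr1104*, already the second most abundant gene of the set in controls, rose from 121, 163 and 77 reads to 589, 779 and 454. Its shares were tight in both groups, 0.275%, 0.285% and 0.282% in controls against 0.722%, 0.745% and 0.789% after 100% SBT, and the log2FC was 1.81 (SE 0.25, adjusted p = 0.000342). *Olfr1130* had 1, 2 and 6 reads in the controls and 84, 91 and 52 after exposure, again without overlap. Its log2FC of 3.98 (SE 0.64, adjusted p = 0.000931) was the largest of the 6, on the lowest control counts of the 6. *Olfr1047* went from 21, 26 and 4 reads (0.0359% ± 0.0185) to 111, 87 and 94 (0.128% ± 0.0407), with a log2FC of 2.14 (SE 0.47, adjusted p = 0.00758). Its exposed mice, at 0.136%, 0.0832% and 0.163%, were all above the controls.

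*Olfr1065* was the weakest of the 6. It had 46, 110 and 27 reads in the controls and 194, 353 and 110 after 100% SBT, and one exposed mouse (0.191%) lay just under the highest control (0.192%). The log2FC was 1.34 (SE 0.37, adjusted p = 0.0303), and the call was lost in 5 of 12 alternatives, with an adjusted p up to 0.138 when replicate 2 of 100% SBT was left out. About 15.7% of the 50-base stretches of its exons are shared with other transcripts, most with the pseudogene *Olfr1060-ps1*. Leaving out replicate 2 of the controls raised the count from 6 to 10 genes, and without any 1 of the other 5 libraries it was 5 to 7.

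Replicates 1 and 2 of this experiment carry a shared title prefix and replicate 3 another, each with control, 1% and 100% SBT libraries. All 6 genes were higher after 100% SBT within both, the prefix of replicate 3 holding 1 library of each group. For all but *Olfr1065* this follows from the lack of overlap between the groups, so the ratios give sizes only. The ratio of shares was 7.29 and 5.08 for *Olfr1054*, 4.75 and 7.12 for *Olfr1087*, 2.62 and 2.80 for *Olfr1104*, and 1.94 and 1.93 for *Olfr1065*. It was less even for *Olfr1130* (32.9 and 4.11, 1 to 6 reads in controls) and *Olfr1047* (2.35 and 11.1, 4 to 26 reads). The fold changes depend on the scaling, because on library totals without TMM the median OR stood at -0.47 in this comparison. On that scale the 6 genes were still higher, with *Olfr1054* at 2.71 and *Olfr1065* at 0.94 (adjusted p = 0.106).

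At an unadjusted p under 0.05, 18 genes of the set differed after 100% SBT, 14 higher and 4 lower, of 95 tested (18.9% against 21.1% of all ORs). *Olfr1085* came closest to the threshold without passing it, with 0, 16 and 5 reads in controls and 53, 58 and 36 after exposure (log2FC 2.34, SE 0.72, adjusted p = 0.0537). Its exposed mice lay above all controls.

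**Figure D3:**
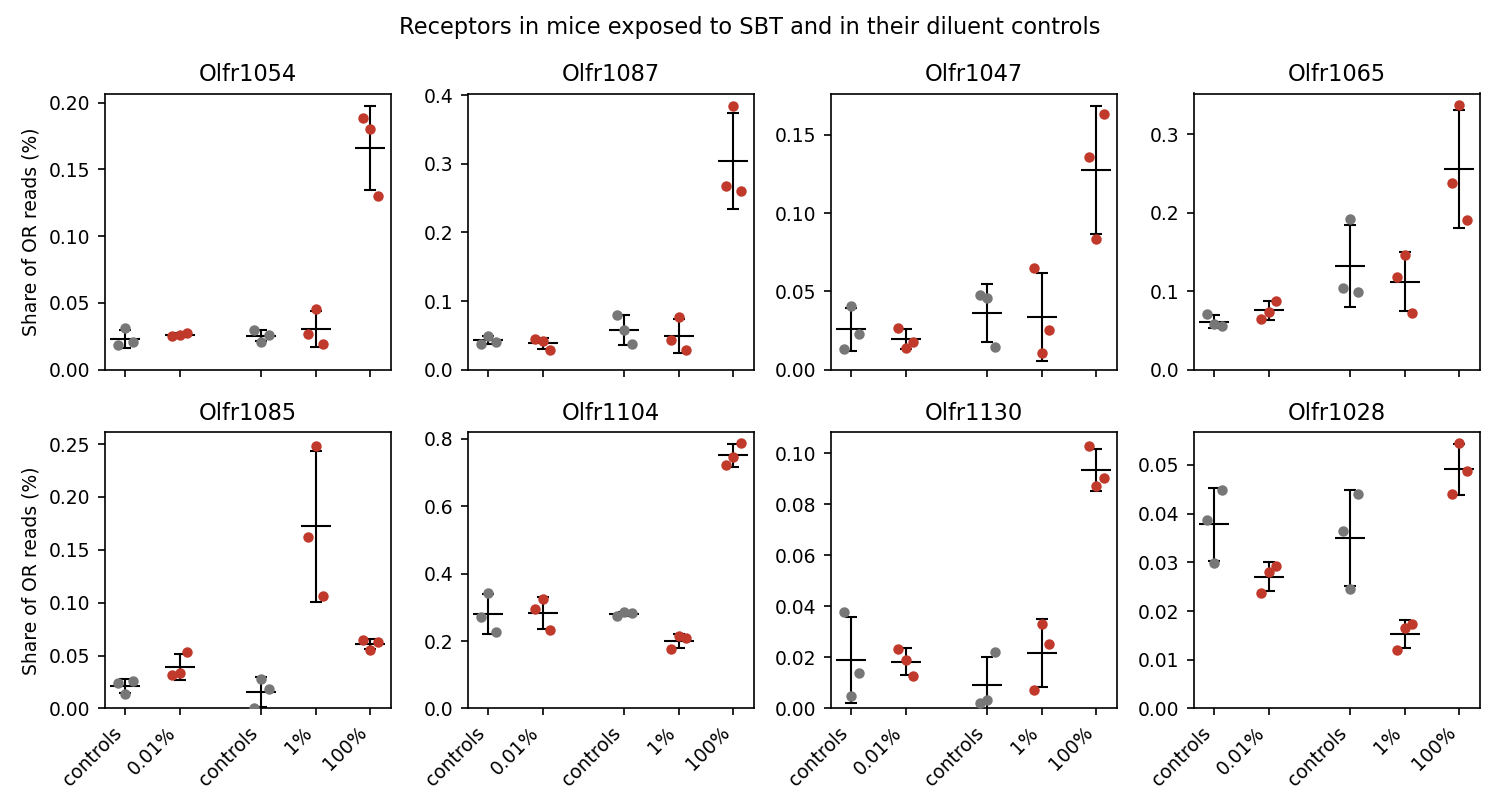
Share of OR reads in percent of 8 genes at 0.01%, 1% and 100% SBT (red) and in the controls left of them (grey), 1 point for each mouse, horizontal line at the mean and bars of 1 SD (n = 3). *Olfr1054*, *Olfr1087*, *Olfr1047*, *Olfr1065*, *Olfr1104* and *Olfr1130* are highest at 100%, whereas *Olfr1085* is highest at 1% (0.107% to 0.249%).

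At 1% SBT a different gene, *Olfr1085*, was the one call in the set. This was 1 of 93 genes tested, or 1.08%, where 0.863% of 1043 ORs passed, all of them as higher (0.863%). *Olfr1085* had 67, 165 and 68 reads after 1% SBT against 0, 16 and 5 in the controls, or 0.162%, 0.249% and 0.107% against 0%, 0.0280% and 0.0183% of OR reads. No exposed mouse overlapped with a control, and the log2FC was 3.55 (SE 0.73, adjusted p = 0.0368, edgeR). The ratio of shares was 14.7 in replicates 1 and 2 and 5.83 in replicate 3. With any 1 library left out the log2FC stayed between 2.96 and 4.55. The call, however, was lost in 5 of these 6 settings (adjusted p = 0.0683 to 0.179) and kept only without replicate 1 of the controls (adjusted p = 0.0207). The 6 genes that rose at 100% were not called at 1%, with log2FC from -0.36 (*Olfr1104*) to 1.46 (*Olfr1130*) and an adjusted p of 0.994 or more.

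At 0.01% SBT none of the 97 genes tested passed by edgeR or by DESeq2, where edgeR called 0.466% of 1072 ORs. At an unadjusted p under 0.05 there were 2 (2.06% against 2.71% of all ORs), *Olfr1093* and *Olfr1085*. *Olfr1093*, with the lowest p, had 113, 50 and 45 reads in controls and 52, 28 and 46 after exposure (log2FC -0.79, SE 0.35, adjusted p = 0.999). Its shares were 0.0823%, 0.0497% and 0.0576% in controls and 0.0325%, 0.0281% and 0.0482% after exposure, without overlap. *Olfr1085* had 33, 14 and 20 reads in these controls and 51, 33 and 51 after 0.01% SBT, with log2FC 0.92 (adjusted p = 0.999), and all 3 exposed shares (0.0319% to 0.0534%) lay above the control shares (0.0139% to 0.0256%).

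The direct contrast of 100% with 1% SBT, whose fold changes do not use the shared controls, gave 7 calls among the 96 genes tested, all higher at 100%. This is 7.29%, against 7.53% of the 1063 ORs (7.15% as higher). *Olfr1104* (log2FC 2.19, SE 0.31, adjusted p = 0.000272), *Olfr1087* (2.93, SE 0.43, adjusted p = 0.000272) and *Olfr1054* (2.77, SE 0.44, adjusted p = 0.00069) passed under all 15 alternatives. *Olfr1130* (2.38, adjusted p = 0.0222), *Olfr1065* (1.50, adjusted p = 0.0226) and *Olfr1047* (2.18, adjusted p = 0.0326) each lost the call in 4 to 6 of them. The seventh, *Olfr1028* (log2FC 1.96, SE 0.56, adjusted p = 0.039), differed between doses, while its differences from controls did not pass the threshold. It had 5, 11 and 11 reads at 1% and 36, 57 and 28 at 100%, with 16, 14 and 12 in the controls, so that its shares at 1% lay below every control and those at 100% just above them. Against controls its log2FC was -1.04 at 1% (adjusted p = 0.994) and 0.91 at 100% (adjusted p = 0.302), and it lost the call between doses in 7 of 15 alternatives. Its neighbour *Olfr1029* is 97.2% identical in protein and shares exon stretches with it, so the split of reads between both is uncertain. *Olfr1085* pointed the other way, with 67, 165 and 68 reads at 1% and 53, 58 and 36 at 100% (log2FC -1.19, SE 0.56, adjusted p = 0.292). Each of its 1% shares exceeded each of its 100% shares, but the difference did not pass the threshold.

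Outside SBT, the 7 genes named for 1% and 100% SBT gave no call. *Olfr1104* ranged from -0.42 (β-caryophyllene) to 0.51 (DHB) in log2FC over the other 7 odor groups, *Olfr1087* from -0.27 to 0.49 and *Olfr1047* from -0.42 to 0.44. *Olfr1054* reached 1.48 after β-caryophyllene, described further on.

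Of the 7 genes that rose after 1% or 100% SBT, 5 fall among *Olfr1047* and its relatives, which are 18 of the 103 genes. *Olfr1047* has 17 relatives in the set with a protein identity of at least 70%, a group formed after the values were seen and given as a description only. Of these 18 genes, *Olfr1047* included, 16 could be tested at 100% SBT, 4 passed (11.4% of all ORs did) and 7 had an unadjusted p under 0.05 (21.1% of all ORs). Since the group was built around a called gene, nothing is read from these counts. *Olfr1084* had no read in the controls and 9, 0 and 2 after exposure. The fitted log2FC of the group had both signs, with 11 above 0 among the 15 with a read in both groups. Differences between relatives were not tested. *Olfr1079* and *Olfr1080*, at 78.6% and 78.9% identity to *Olfr1047*, had log2FC of -0.34 each (SE 0.42 and 0.47). *Olfr1046* had -0.56 (SE 0.47) and *Olfr1066* -2.78 (SE 1.47), the latter on 0 to 5 reads against 0 to 18 in controls. None of them passed the threshold.

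The 6 genes called at 100% SBT have 12 neighbours in the set on either side, of which 10 could be tested and none passed, with log2FC from -2.78 to 1.29. With 11.4% of all ORs called in this comparison, a count of 0 among 10 is close to the background.

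**Figure D4:**
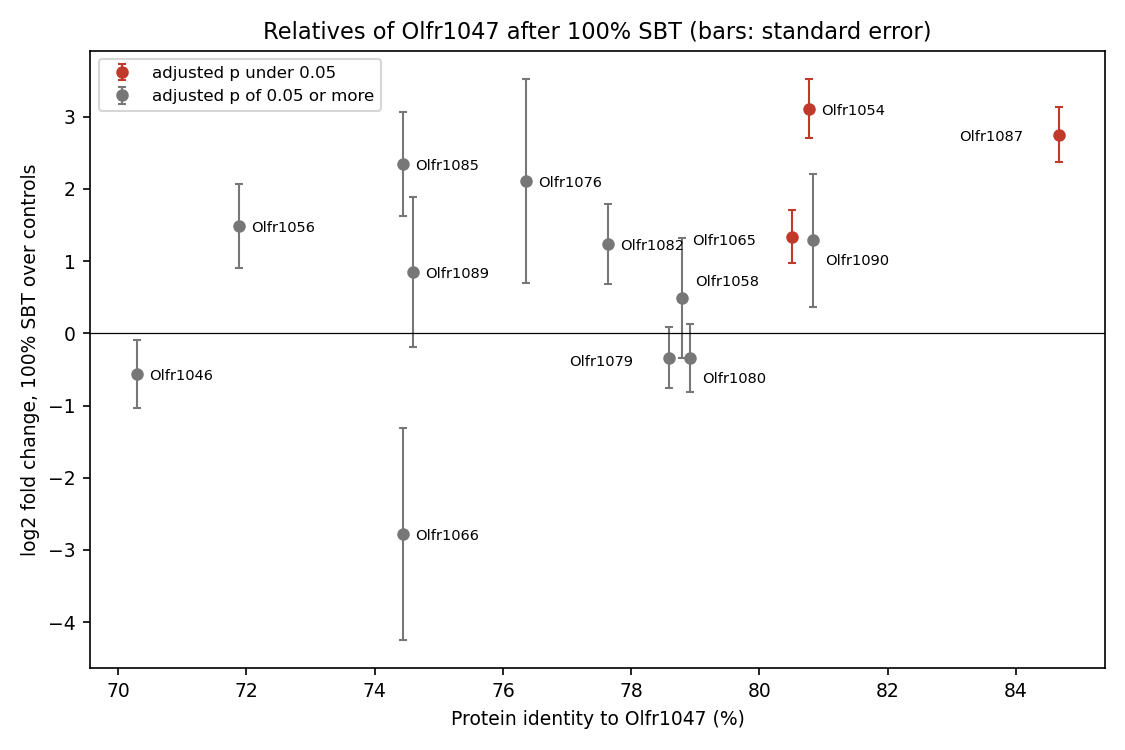
Log2 fold change of 100% SBT over controls (with bars of 1 standard error) against protein identity to *Olfr1047* in percent, for relatives of at least 70% identity with reads in both groups. The 3 calls in red (*Olfr1054*, *Olfr1065* and *Olfr1087*) have 80.5% to 84.7% identity, where *Olfr1090* (1.29) is not called, and values between 70% and 80% run from -2.78 to 2.34.

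The pair *Olfr1129* and *Olfr1130*, 98.1% identical in protein and shown in sequence above, is given side by side. After 100% SBT *Olfr1130* rose (log2FC 3.98), whereas *Olfr1129* had 0, 12 and 3 reads in controls and 13, 24 and 13 after exposure (log2FC 1.29, SE 0.95, adjusted p = 0.514), with overlapping shares. After 2,5-DMP the fitted log2FC of the 2 genes had opposite signs. *Olfr1129* had 3, 4 and 8 reads in controls and 14, 28 and 38 after exposure (log2FC 2.11, SE 0.55, adjusted p = 0.0832), while *Olfr1130* had 17, 18 and 33 reads in controls and 7, 14 and 19 after exposure (log2FC -1.07, SE 0.47, adjusted p = 0.982). All 3 exposed mice were above the controls for *Olfr1129* and below them for *Olfr1130*. Neither passed the threshold, and the difference between the 2 genes was not tested.

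The same controls served 100 μM MTMT and (*E*)-β-farnesene, where *Olfr1129* stood at 1.73 (SE 0.61, adjusted p = 0.88) and 1.43 (adjusted p = 0.727) and *Olfr1130* at -0.61 and -0.53. In these controls *Olfr1129* had its lowest mean of all 17 groups, 0.00483% ± 0.00164 of OR reads. Over the 51 libraries *Olfr1129* had 743 and *Olfr1130* 973 reads, with *Olfr1129* ahead in 21 libraries, *Olfr1130* in 28, and equal counts in 2. Since 22.4% of the stretches of *Olfr1129* and 17.2% of those of *Olfr1130* occur elsewhere, mostly in each other, the estimated split of reads between them is uncertain.

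**Figure D5:**
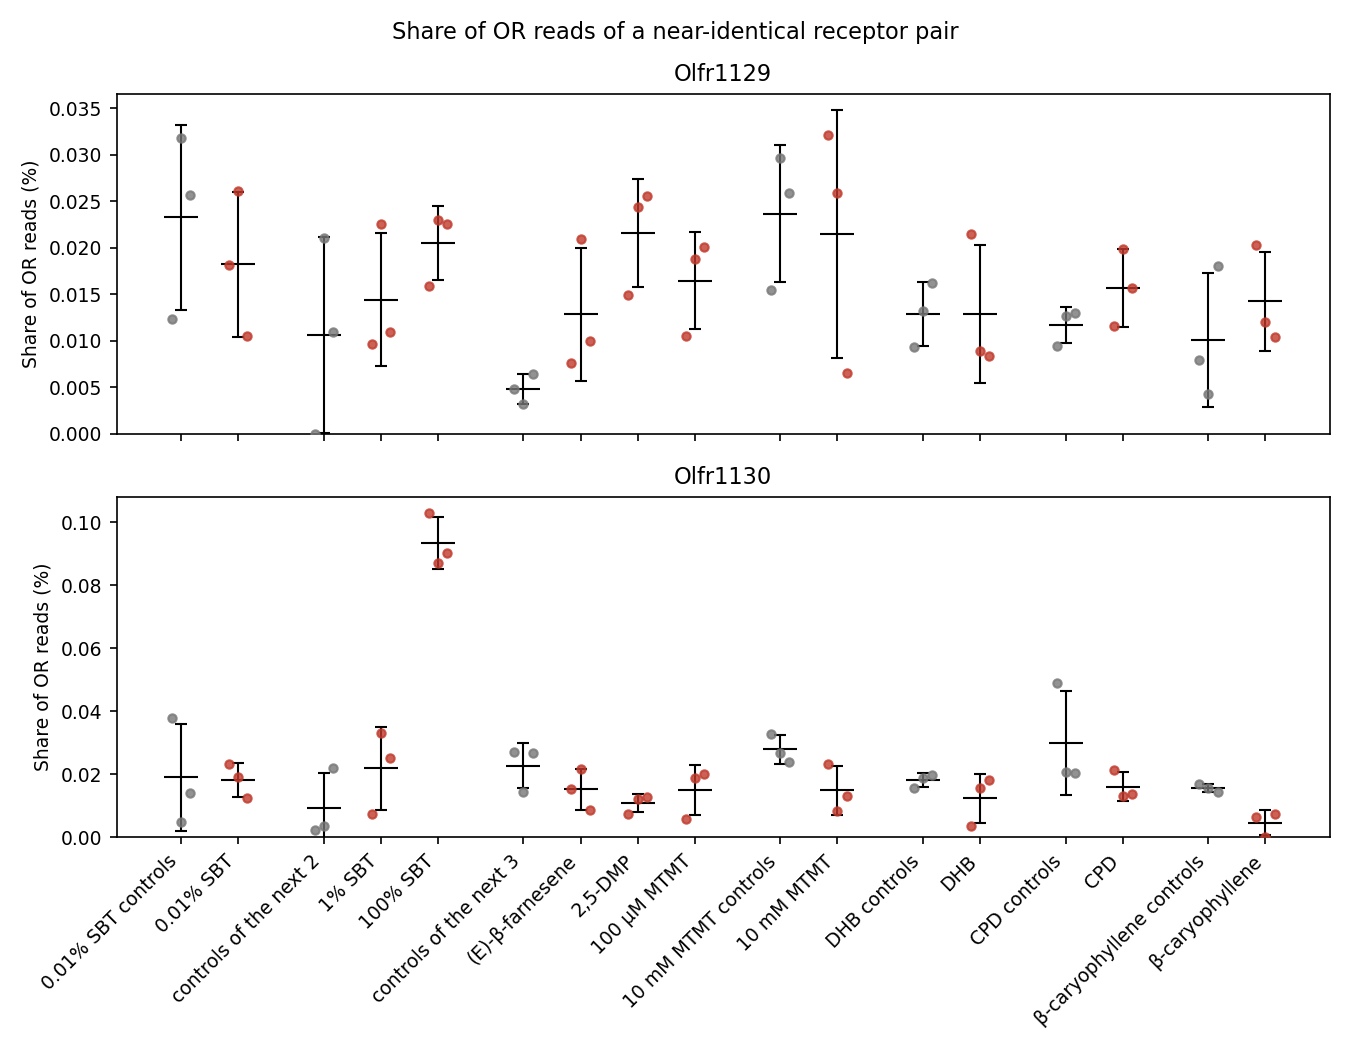
Share of OR reads in percent of *Olfr1129* (above) and *Olfr1130* (below) in 51 libraries, 1 point for each mouse (grey controls, red odor), horizontal line at the mean and bars of 1 SD (n = 3), on axes of different height; "next 2" and "next 3" name the odor groups that share a control group. *Olfr1130* stands apart at 100% SBT (0.0871% to 0.103%), and *Olfr1129* is lowest in the controls of the next 3 (0.00483% on average).

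The most alike pair of all, *Olfr1049* and *Olfr1051*, has 98.4% protein identity, with 12 of 924 coding bases and 5 of 308 residues that differ. They had 293 and 518 reads over the 51 libraries, with *Olfr1051* ahead in 40 libraries and *Olfr1049* in 7, and neither passed the threshold in any comparison.

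None of the genes was called for the other 7 odor groups, by edgeR or by DESeq2. After 100 μM MTMT 0 of 98 tested passed, against 0.281% of 1068 ORs, and 4 had an unadjusted p under 0.05 (4.08% against 4.12% of all ORs). The lowest p was that of *Olfr1129*, given above with the pair, with 3, 4 and 8 reads in controls and 11, 21 and 22 after exposure. After 10 mM MTMT 0 of 95 passed, as did 0.0% of 1054 ORs, and 4 had an unadjusted p under 0.05 (4.21% against 6.55%). *Olfr1016*, a gene from the start of the cluster, had 26, 20 and 21 reads in controls and 13, 4 and 2 after 10 mM MTMT (log2FC -2.00, SE 0.64, adjusted p = 0.449). The 3 exposed mice were below the controls. Without replicate 1 of 10 mM MTMT, or with all 51 libraries in 1 fit, it passed (-3.04, adjusted p = 0.0349, and -2.01, adjusted p = 0.0211). The median log2FC of the set was -0.10 after 10 mM MTMT, that of all ORs 0.03 and that of *Olfr1141* to *Olfr1318* 0.27.

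After (*E*)-β-farnesene 0 of 97 passed, against 1.77% of 1071 ORs, with 5 at an unadjusted p under 0.05 (5.15% against 6.44%). *Olfr1009* had the lowest p, with 24, 92 and 49 reads in controls and 89, 140 and 126 after exposure (log2FC 0.90, SE 0.29, adjusted p = 0.211). Its shares in exposed mice, 0.0751%, 0.113% and 0.0897%, lay above those of the controls, 0.0384%, 0.0736% and 0.0397%. *Olfr1097* (log2FC 1.03, adjusted p = 0.266) was the one call made when replicate 3 of (*E*)-β-farnesene was left out.

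After 2,5-DMP 0 of 98 passed, against 0.841% of 1070 ORs, with 5 at an unadjusted p under 0.05 (5.10% against 4.39%). *Olfr1129* was nearest, and it passed once replicate number was a block (log2FC 2.15, adjusted p = 0.022). The likelihood ratio test of edgeR called it and *Olfr993*, which had no read in the controls and 3, 7 and 5 after exposure. The left-out genes *Olfr1012* to *Olfr1015*, which lie inside the span, had a median log2FC of 1.58 in this comparison, and 2 of the 4 passed.

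After DHB 0 of 98 passed, against 0.564% of 1064 ORs, with 1 at an unadjusted p under 0.05 (1.02% against 3.57%). That gene, *Olfr1076*, had 5, 14 and 8 reads in controls and 1, 5 and 2 after exposure (log2FC -1.83, SE 0.86, adjusted p = 0.994). Each exposed share was below each control share. After CPD 0 of 94 passed, and 0.0% of 1050 ORs did, with 1 at an unadjusted p under 0.05 (1.06% against 3.81%). That was *Olfr1030*, the sixth most abundant gene of the set, with shares of 0.155%, 0.106% and 0.0956% in controls and 0.0742%, 0.0569% and 0.0596% after CPD (log2FC -0.77, SE 0.30, adjusted p = 0.993). These shares did not overlap either. Genes named for the lowest p of a comparison, here and above, were picked on these same values, so nothing is read from their separation. After β-caryophyllene 0 of 93 passed, and 0.0% of 1048 ORs did, with 3 at an unadjusted p under 0.05 (3.23% against 4.87%). *Olfr1054* had the lowest p, with 31, 6 and 16 reads in controls and 19, 84 and 41 after exposure (log2FC 1.48, SE 0.62, adjusted p = 0.904). The groups overlapped, and the highest value was that of replicate 2, the library in which *Olfr1018* also had its highest share.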

How the data were processed

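The members and the compared lists were chosen with earlier results of these data known. Per the methods, reads of pS6-IP-Seq libraries from 51 mice were aligned by the authors with STAR to GRCm38.p6 (GENCODE M25), quantified with RSEM and compared with edgeR. The 10 deposited tables used hold expected counts, estimated with RSEM by the authors for each OR gene, given as whole numbers and not normalized. The authors also deposited a log2 fold change, a log2 CPM, a likelihood ratio score, a p-value and an FDR of their own comparisons, none of which was used. A further table, of 2-heptanone, was not used, since its 6 per-sample columns match no sample.

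Counts of all 1117 ORs were tested with edgeR 4.0.16 in R 4.3.3 (TMM over ORs, at least 10 reads over the libraries of the fit, quasi-likelihood test, Benjamini-Hochberg adjustment over all ORs tested, threshold 0.05). The SE is the fold change divided by the root of F. Shares are percent of OR reads, since reads of other genes are not in the tables. Summed shares were compared by exact two-sided permutation tests (scipy 1.17.1). Genes named are those past the threshold, the lowest p where none passed, the 8 highest and 3 lowest in controls, the 5 most variable between groups, those with 5% of the set's reads in a library, the most alike pair, and those without reads. The pair *Olfr1129* and *Olfr1130*, the relatives of *Olfr1047*, and genes named as near the threshold, from an alternative setting, as *Olfr986* or as chromosomal landmarks were added after values were seen. Alternatives were a replicate block, DESeq2 1.42.0, library totals, no filter, 1 fit of all libraries, the likelihood ratio test and each library left out. The fits were also run on simulated counts, with as many ORs raised as lowered. At 100% SBT 112 of the 120 ORs called were higher, a setting that the simulation does not cover. No result here rests on it.

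Replicate libraries differed beyond counting noise in all 51 pairs (chi-square per degree of freedom 5.46 to 31.1). Each mouse gave its own capture and library, so differences between mice and between captures cannot be told apart in this spread. The tests set a difference between groups against this spread. Zero counts allow 3 counts, for counting error only. Same-numbered mice of a comparison deviated together with r = 0.04 to 0.29 over ORs, above 0.1 for every number in 4 comparisons (CPD, β-caryophyllene and the 2 higher doses of SBT). The paper describes litter-matched mice, with an odor mouse and a diluent mouse, but the labels do not say whether equal numbers mark such pairs. The main tests left pairing out, and the replicate block was an alternative. Gene models, coding sequences and identities are from GENCODE M21 on GRCm38, an earlier release than the authors' annotation. Medians of fold changes moved by at most 0.01 on the log2 scale when ORs without a read in one group were left out.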

Additional observations from a re-analysis of the deposited data

Results flagged for a closer look

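The response of 7 genes differed between the SBT doses when 100% was set directly against 1% in 1 fit of both groups with their controls (edgeR quasi-likelihood test). On the log2 scale, 100% exceeded 1% by 2.19 for *Olfr1104*, 2.93 for *Olfr1087*, 2.77 for *Olfr1054*, 2.38 for *Olfr1130*, 1.50 for *Olfr1065*, 2.18 for *Olfr1047* and 1.96 for *Olfr1028*. The 7 calls are 7.29% of the 96 genes tested, against 7.53% of the 1063 ORs. For each of these genes, picked by this contrast, all 3 mice at 100% were above all 3 mice at 1%. The share of all ORs that separate in this way was not counted. Ratios above 1 within the title prefixes follow from that separation, so they give sizes only. Within the title prefixes of the libraries, the ratio of shares at 100% to those at 1% was 3.75 for *Olfr1104* in both, 5.42 and 9.23 for *Olfr1087*, 5.14 and 6.92 for *Olfr1054*, 4.70 and 3.60 for *Olfr1130*, 2.18 and 2.65 for *Olfr1065*, 2.90 and 6.50 for *Olfr1047*, and 3.44 and 2.82 for *Olfr1028*.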

How the results depend on the processing

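No direction of a gene named by the comparisons turned under any alternative, in 284 recomputations. These genes were picked in the main fits, and the alternatives reuse the same counts. A turn was therefore unlikely from the start, and nothing is read from its absence. Of the called genes, *Olfr1054*, *Olfr1087*, *Olfr1104*, *Olfr1130* and *Olfr1047* kept their call at 100% SBT in all 12 alternatives, *Olfr1065* and *Olfr1085* (1% SBT) in 7 of 12 each. On library totals the median OR moved from -0.07 to -0.47 for 100% SBT, from 0.03 to -0.28 for 10 mM MTMT, from 0.02 to -0.10 for 1% SBT, from -0.02 to -0.13 for CPD and from -0.01 to -0.31 for 100% against 1% SBT. The last then had 3 calls in place of 7 (*Olfr1054*, *Olfr1087* and *Olfr1104*). One fit of all libraries gave 11 calls for 100% SBT, 11 for 100% against 1% SBT and 1 for 10 mM MTMT. The likelihood ratio test gave 2 calls for 2,5-DMP.

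With the replicate number as a block, 2,5-DMP had 1 call (*Olfr1129*, log2 fold change 2.15) in place of 0, 100% SBT 7 in place of 6, and the calls for 1% SBT (1) and 100% against 1% SBT (7) kept their number. In the other 7 comparisons the block gave no call.

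With each library left out, the calls ranged from 0 to 1 for 1% SBT, from 5 to 10 for 100% SBT, from 0 to 1 for 10 mM MTMT, from 0 to 1 for (*E*)-β-farnesene and from 3 to 7 for 100% against 1% SBT. Those 3 arose without replicate 1 or 2 of 100% SBT or replicate 3 of 1% SBT, and there were 4 without replicate 3 of 100% SBT. Summed log2 differences near 0 changed sign. They ranged from -0.15 to 0.21 for 1% SBT (-0.15 without its replicate 2, -0.08 without control replicate 3), from -0.041 to 0.19 for 100% SBT (-0.041 without control replicate 3), from -0.034 to 0.055 for (*E*)-β-farnesene, from -0.022 to 0.17 for 2,5-DMP and from -0.0051 to 0.16 for β-caryophyllene. Without the 5 most abundant ORs of each library the control share was 4.57% and the (*E*)-β-farnesene difference -0.013. Of these changes the cause was not tested. With 3 mice a group and the low counts of most of these genes, small changes of single genes could not be detected.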
